A study of Homo sapiens and Mus musculus with 74 samples.

Results

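The genes described here encode 9 large motor proteins of the mouse, grouped here as myosin and dynein heavy chains: the nonmuscle myosin II heavy chains Myh9, Myh10 and Myh14, the smooth muscle myosin heavy chain Myh11, the unconventional myosins Myo5a, Myo6 and Myo18a, and the cytoplasmic dynein heavy chains Dync1h1 and Dync2h1. They were taken by name from the 22484 genes with an annotated protein in the mouse count table, each represented by the annotated transcript (GENCODE M21, genome build GRCm38) that encodes its longest protein. The study removed the whole coding sequence of Rpl41, which encodes the smallest ribosomal protein, from C57BL/6J zygotes with CRISPR-Cas9, and compared male knockout mice (Rpl41 KO) with male wild-type mice (WT) at 10 weeks of age. The deletion was not limited to a cell type by a Cre or promoter, and the HEK293T libraries of the same series were not used. RNA-seq and Ribo-seq were made from kidney and brain, and disome-seq from kidney only, with 3 libraries per genotype in each, which gave 30 libraries in all. Ribo-seq sequences the fragments of 17 to 34 nucleotides that a single ribosome protects from nuclease, here called footprints, and disome-seq the fragments of 50 to 80 nucleotides that a pair of stacked ribosomes protects.

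Myosin II heavy chains pair through a long coiled-coil tail and assemble into bipolar filaments that pull on actin. MYH9 and MYH10 are the widespread nonmuscle forms of tension, adhesion and cytokinesis, MYH14 is found mainly in epithelia, nerve and muscle, and MYH11 is the form of contractile smooth muscle in vessel walls. Myosin Va walks toward the plus end of actin and carries vesicles and endoplasmic reticulum in neurons, myosin VI walks toward the minus end and serves endocytosis at the base of epithelial microvilli, and myosin XVIIIa joins myosin II filaments without acting as a motor of its own. Cytoplasmic dynein 1, built on DYNC1H1, is the main motor toward microtubule minus ends, and dynein 2, built on DYNC2H1, returns cargo from the tips of cilia.

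The coding sequences ran from 3882 bases in Myo6 upward. Dync1h1 lies on chromosome 12 (110601452 to 110666945, plus strand) and encodes 4644 residues in 77 exons, and Dync2h1 lies on chromosome 9 (6929304 to 7176957, minus strand) and encodes 4313 residues in 90 exons. The 4 myosin II genes encode 1960 residues (Myh9, chromosome 15, 77760587 to 77842175, minus strand), 2013 residues (Myh10, chromosome 11, 68692316 to 68816624, plus strand), 1979 residues (Myh11, chromosome 16, 14194648 to 14291365, minus strand) and 2033 residues (Myh14, chromosome 7, 44605819 to 44665503, minus strand). Myo5a encodes 1855 residues (chromosome 9, 75071386 to 75218550, plus strand), Myo6 1294 residues (chromosome 9, 80165227 to 80308097, plus strand) and Myo18a 2083 residues (chromosome 11, 77777293 to 77865142, plus strand).

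The myosin II genes are paralogs whose proteins were between 60.1% (Myh11 and Myh14) and 75.7% (Myh9 and Myh10) identical after alignment of the translated coding sequences, and reads that mapped to several places were kept by the authors, so it mattered how much sequence the genes share. The stretch that Myh9 and Myh10 share without a difference ran for 122 bases. Part of it is shown for all 4 genes, read 5′ to 3′ from the reference transcripts, with capitals at the 6 of 60 positions at which the genes are not all alike. The window covers codons 471 to 490 of Myh9, 515 to 534 of Myh10, 485 to 504 of Myh11 and 493 to 512 of Myh14.
Myh9: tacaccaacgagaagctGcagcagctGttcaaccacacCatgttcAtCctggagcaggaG
Myh10: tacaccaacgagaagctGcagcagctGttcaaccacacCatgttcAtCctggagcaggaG
Myh11: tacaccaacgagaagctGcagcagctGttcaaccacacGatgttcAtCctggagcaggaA
Myh14: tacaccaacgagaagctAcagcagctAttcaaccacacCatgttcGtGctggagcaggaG

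A footprint from a stretch that genes share without a difference, as Myh9 and Myh10 do here, cannot be assigned to 1 gene. At a length of 28 bases such stretches were few. For shorter footprints, down to 17 nucleotides, the shares were not computed and can be higher. Of all runs of 28 bases in the coding sequence, 2.36% in Myh9, 2.01% in Myh10, 1.39% in Myh11 and 0.51% in Myh14 also occurred in a transcript of another gene. Myo5a shared 3 of 5538 such runs, all with Myo5c, and Myo6, Myo18a, Dync1h1 and Dync2h1 shared none.

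Total counts of the Ribo-seq libraries were 11036643 to 42452425 for kidney and 9498663 to 35881929 for brain. Those of the RNA-seq libraries were 44998381 to 55077048 for kidney and 84433838 to 123745890 for brain, and the kidney disome libraries held 1187636 to 3018963. Rpl41 itself had 81.2 to 156 CPM (counts-per-million of a library's scaled total) in the WT RNA libraries and at most 0.211 in the KO libraries. The labelled tissues carried their markers: 6 proximal tubule genes summed to between 3332 and 4058 CPM in kidney RNA and to at most 7.26 in brain RNA, and 6 neuronal genes summed to between 1140 and 1715 CPM in brain RNA and to at most 2.15 in kidney RNA. Genes of pancreatic acinar cells were unevenly present, at a lowest, median and highest sum of 14.1, 43.7 and 319 CPM in the WT kidney footprint libraries and 7.57 to 10.03 in the KO kidney footprint libraries.

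Most of the heavy chains differed in level between WT kidney and WT brain. In footprints, 7 of the 9 differed between kidney and brain, 4 higher and 3 lower in kidney (quasi-likelihood test of edgeR, p adjusted by the Benjamini-Hochberg method across every tested transcript, threshold 0.05). Of all genes tested 75.6% differed, 37.6% higher and 38% lower in kidney. In RNA 5 of the 9 differed, where 73% of all genes did, so a difference as such was no more frequent among the heavy chains. Levels are CPM scaled by the trimmed mean of M values (TMM) over the 12 libraries of an assay, and comparisons between genes use CPM per kilobase of coding sequence.

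Of the nonmuscle heavy chains, Myh9 was higher in kidney and Myh10 higher in brain. Myh9 footprints were at 163, 148 and 132 CPM in the WT kidney libraries and at 44.5, 37.9 and 39.7 in the WT brain libraries, 3.6-fold higher in kidney (log2 fold change 1.85, standard error 0.14, adjusted p = 2.85e-08). Myh10 ran the other way, at 24.1, 23.2 and 19.6 CPM in kidney and 77.9, 75 and 75.2 in brain (log2 fold change -1.77, standard error 0.13, adjusted p = 2.43e-08). The tissues did not overlap for either gene. The same directions held in RNA, with log2 fold changes of 1.76 for Myh9 and -1.86 for Myh10. Myh14 was level between the tissues, at 15.2, 11.8 and 19.1 CPM in kidney and 14.2, 13.9 and 14.8 in brain (log2 fold change 0.09, standard error 0.16, adjusted p = 0.632).

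Expressed as the share of each gene in the sum of the 3 nonmuscle heavy chains, with counts divided by coding length, Myh9 made up 80.1% ± 1.97 (SD, n = 3) of WT kidney footprints and Myh10 11.8% ± 0.562. In WT brain Myh9 made up 31.6% ± 1.40 and Myh10 57.6% ± 1.07. Myh14 contributed 8.15% ± 2.46 in kidney and 10.8% ± 0.480 in brain. Its share was larger in RNA, divided by transcript length, at 17.5% ± 1.88 in kidney and 19.3% ± 1.58 in brain, where the Myh9 share was smaller, at 68.1% ± 0.333 and 22.4% ± 0.549.

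**Figure D1:**
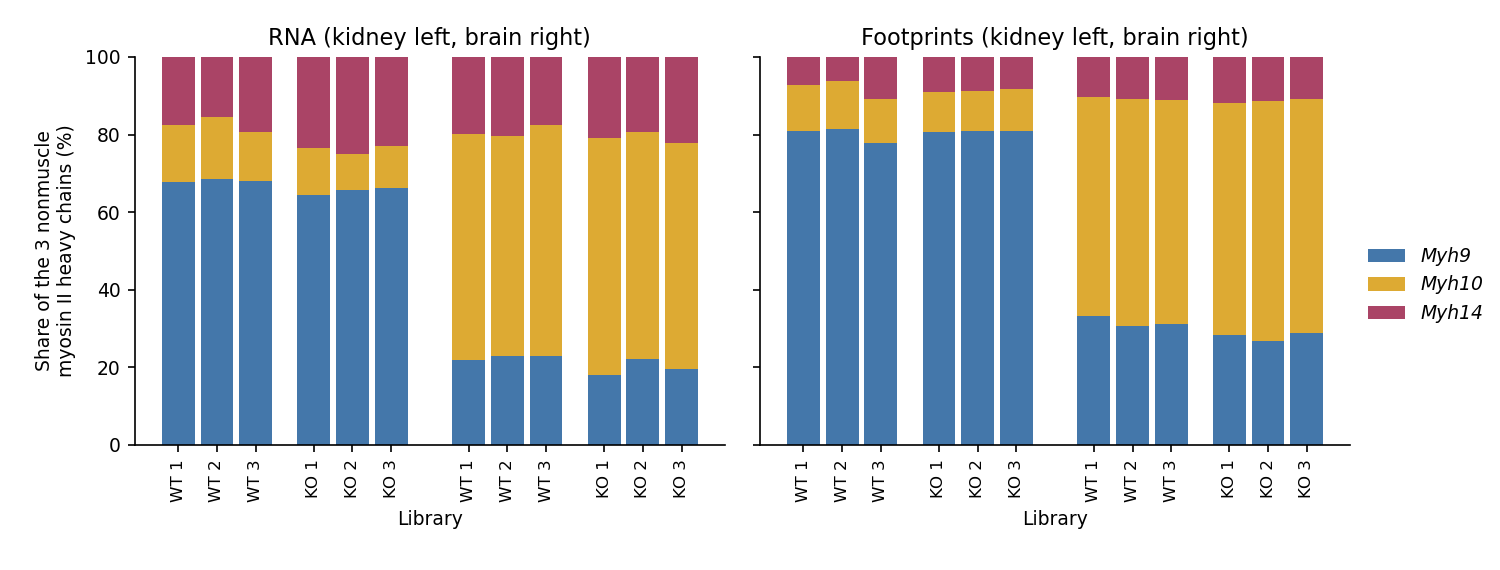
Share of Myh9, Myh10 and Myh14 in the sum of the 3 in each library (stacked bars, percent), from RNA per kilobase of transcript and footprints per kilobase of coding sequence. Myh9 takes most of every kidney bar and Myh10 most of every brain bar, and WT and KO bars of a tissue differ by a few percentage points.

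The smooth muscle chain Myh11 was also higher in kidney, at 19.3, 20.4 and 13 CPM in WT kidney footprints against 5.26, 3.48 and 5.01 in WT brain (log2 fold change 1.90, standard error 0.19, adjusted p = 8.08e-07). Myo6 stood at 149, 156 and 164 CPM in kidney and 53, 52.2 and 60.8 in brain (log2 fold change 1.49, standard error 0.13, adjusted p = 1.44e-07). Myo18a differed least among the called genes, at 49.2, 49.8 and 40.3 CPM in kidney and 36, 23 and 28.4 in brain (log2 fold change 0.66, standard error 0.16, adjusted p = 0.00263). The 3 of them were higher in kidney RNA as well.

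The cargo motors Myo5a and Dync1h1 were higher in brain. Myo5a had 157, 152 and 166 CPM in WT brain footprints and 28.7, 37.9 and 34.5 in WT kidney (log2 fold change -2.24, standard error 0.14, adjusted p = 4.74e-09). Dync1h1 had 377, 280 and 325 CPM in brain and 186, 172 and 173 in kidney (log2 fold change -0.89, standard error 0.15, adjusted p = 7.77e-05). Dync2h1 showed no difference past the threshold, at 17.9, 15.4 and 20.8 CPM in kidney and 23.5, 14.1 and 17.9 in brain (log2 fold change -0.06, standard error 0.18).

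Per kilobase of coding sequence, the order of footprint levels in WT kidney was Myo6 (40.3 CPM per kilobase ± 1.99, SD, n = 3), Myh9 (25.1 ± 2.65), Dync1h1 (12.7 ± 0.562), Myo18a (7.43 ± 0.854), Myo5a (6.06 ± 0.837), Myh10 (3.7 ± 0.397), Myh11 (2.96 ± 0.673), Myh14 (2.52 ± 0.604) and Dync2h1 (1.4 ± 0.210). The values of Myo18a and Myo5a, of Myh10 and Myh11, and of Myh11 and Myh14 overlapped between libraries. In WT brain Myo5a led with 28.5 ± 1.28 and Dync1h1 followed with 23.5 ± 3.49, and then came Myo6 (14.3 ± 1.23), Myh10 (12.6 ± 0.272) and Myh9 (6.92 ± 0.581).

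Footprints on Myo5a were spread differently over its exons in kidney and in brain. The table counts each annotated transcript model apart, and among those of Myo5a is one that holds the exons of the motor head and neck (chromosome 9, 75071565 to 75176557, 22 exons) and one that holds exons of the tail (75185994 to 75217993). These models were picked after their counts had been seen and are given without a test. In the 6 brain footprint libraries, 56.3% to 59.4% as many counts fell on the head model as on the longest Myo5a model, and 29.4% to 30.6% on the tail model. In the 6 kidney libraries the head model had 10.4% to 15.1% and the tail model 74.8% to 79.9%. The ranges of the tissues lay far apart, and WT and KO libraries of a tissue overlapped.

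Read by model, head counts were lower in WT kidney than in WT brain by a log2 fold change of -4.57 (standard error 0.18), and tail counts by -0.91 (standard error 0.14). The kidney disome libraries, with 31 to 114 counts each on Myo5a, gave a tail share of 63.6% to 90.3%. The head model has 3002 bases, 25.65% of the length of the longest model, and the tail model has 1758 bases, 15.02%. In RNA the head model had 0.668% to 2.74% in WT kidney and 1.44% to 4.25% in WT brain, below its length share. The tail model had 15% to 26.4% of RNA in WT kidney and 8.49% to 14.3% in WT brain. The tail share of RNA was thus above the head share in both WT tissues. Kidney footprints had the same order and brain footprints the opposite one. Below is a coding exon of each model, of the plus strand of GRCm38, with in-frame ATG codons in capitals. The exons were picked by their place in the models. Counts are given per model and not per exon, so they do not show how many fell on these bases. The first is coding exon 22 of 41, the last that the head model holds whole (chr9:75173952-75174200, from codon 940). The second is coding exon 30, the first that the tail model holds whole (chr9:75189900-75190000, from codon 1287).
Myo5a exon of the head model: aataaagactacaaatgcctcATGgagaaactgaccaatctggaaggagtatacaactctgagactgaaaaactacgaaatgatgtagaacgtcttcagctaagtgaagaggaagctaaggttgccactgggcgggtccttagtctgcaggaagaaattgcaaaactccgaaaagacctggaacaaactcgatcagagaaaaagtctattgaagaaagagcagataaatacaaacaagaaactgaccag
Myo5a exon of the tail model: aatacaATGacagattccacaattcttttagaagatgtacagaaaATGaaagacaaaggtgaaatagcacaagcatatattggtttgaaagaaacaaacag

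**Figure D2:**
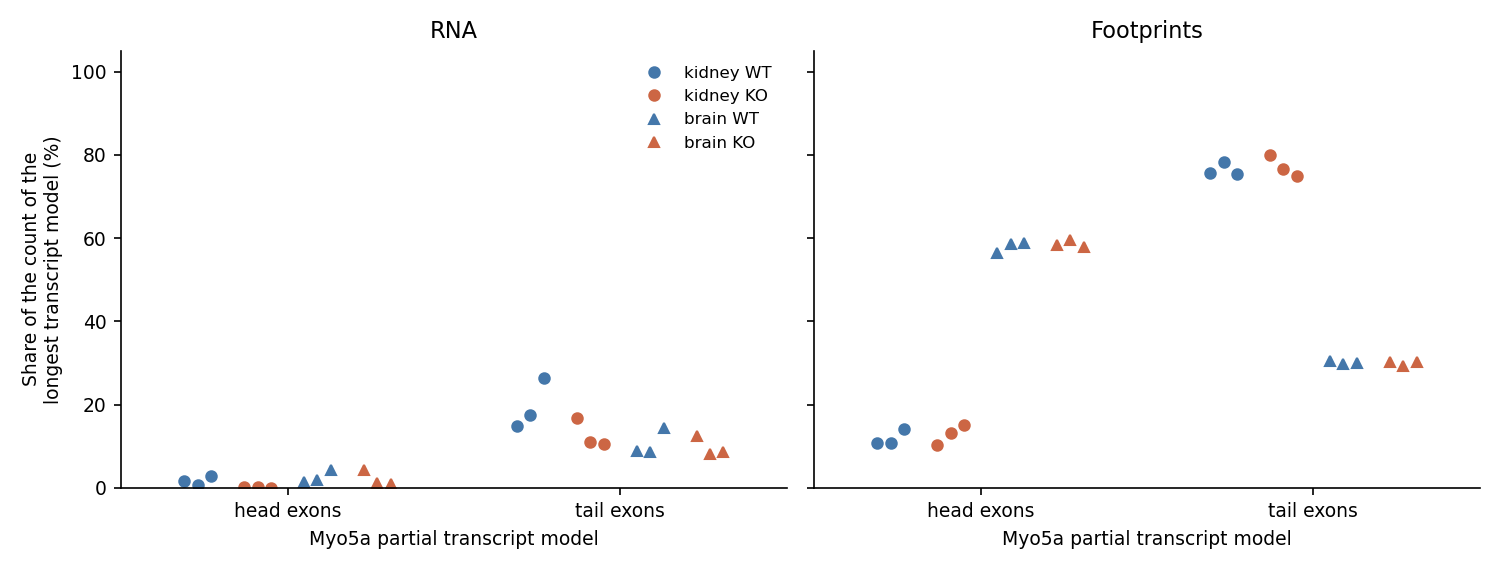
Counts on the head and tail models of Myo5a as a percentage of the counts on its longest transcript model, for each library, in RNA and in footprints (circles kidney, triangles brain, blue WT, orange KO). In footprints the tail share of every kidney library lies between 74.8% and 79.9% and that of every brain library between 29.4% and 30.6%, and the head share has the opposite order.

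In the kidney, loss of Rpl41 was accompanied by more footprints on 6 of the 9 heavy chains. Both dynein heavy chains, the 3 nonmuscle myosin II chains and Myo6 rose, and none fell (edgeR's quasi-likelihood test, adjusted p under the 0.05 threshold). Of all 13454 genes tested, 9.88% were called, with 5.97% rising and 3.91% falling. The median log2 fold change of the 9 was 0.55, beside -0.02 over all genes. Marker genes of kidney cell types also had higher footprint levels in KO. The 6 proximal tubule markers summed to 3774 to 4412 CPM in WT and 5253 to 5953 in KO, with 6 of 6 positive, 2 called and a median log2 fold change of 0.33. The 6 markers of distal nephron and collecting duct summed to 1385 to 1649 CPM in WT and 1899 to 2130 in KO, and the 6 endothelial markers to 107.5 to 139 and 151 to 163.7, with 4 of 6 and 5 of 6 positive. Podocyte markers had 5 of 5 negative values (median -0.32). The part of these cell types in the heavy chain result was not tested.

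Among the heavy chains Dync1h1 had the largest log2 fold change. Its footprints stood at 186, 172 and 173 CPM in WT and 271, 324 and 328 in KO, a 1.71-fold rise (log2 fold change 0.78, standard error 0.13, adjusted p = 0.00769). Dync2h1 stood at 17.9, 15.4 and 20.8 CPM in WT and 24.1, 32.9 and 31.3 in KO (log2 fold change 0.70, standard error 0.14, adjusted p = 0.0131). For both dynein chains the KO libraries all lay above the WT libraries. Of the annotated models of each gene, which share most of their reads, 8 of 8 of Dync1h1 and 4 of 8 of Dync2h1 passed the test upward, and 7.76% of all tested transcripts were called in either direction.

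Among the nonmuscle myosins, Myh9 went from 163, 148 and 132 CPM in WT to 210, 254 and 229 in KO (log2 fold change 0.63, standard error 0.13, adjusted p = 0.0160). Myh14 went from 15.2, 11.8 and 19.1 CPM to 24.5, 28.3 and 24.3 (log2 fold change 0.73, standard error 0.15, adjusted p = 0.0144). Myh10 went from 24.1, 23.2 and 19.6 CPM to 27.9, 33.6 and 31.9 (log2 fold change 0.46, standard error 0.11, adjusted p = 0.0305). All 3 rose without overlap of the genotypes. Of the tested models, 8 of 9 of Myh9, 7 of 8 of Myh14 and 3 of 9 of Myh10 passed the test upward. Over the Myh10 models the log2 fold change ran from -0.19 to 0.54. The Myh9 share of the nonmuscle footprints was 80.1% in WT and 80.8% in KO, and the Myh10 share 11.8% and 10.6% (two-sided exact permutation test of the Myh10 share, p = 0.1, the smallest that 3 against 3 libraries can give).

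Myo6, the minus-end myosin, was at 149, 156 and 164 CPM in WT and 231, 229 and 233 in KO (log2 fold change 0.55, standard error 0.12, adjusted p = 0.0176). Its genotypes were also apart. The remaining 3 genes were not called and their libraries overlapped. Myh11 had 19.3, 20.4 and 13 CPM in WT and 12.7, 17.7 and 14.6 in KO (log2 fold change -0.23, standard error 0.16). Myo5a had 28.7, 37.9 and 34.5 CPM in WT and 46.6, 38.4 and 27.1 in KO (0.12, standard error 0.17), and Myo18a had 49.2, 49.8 and 40.3 in WT and 46.8, 51.1 and 52.1 in KO (0.09, standard error 0.11). In all, 6 of the 9 had every KO library above every WT library, as 20% of genes did.

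**Figure D3:**
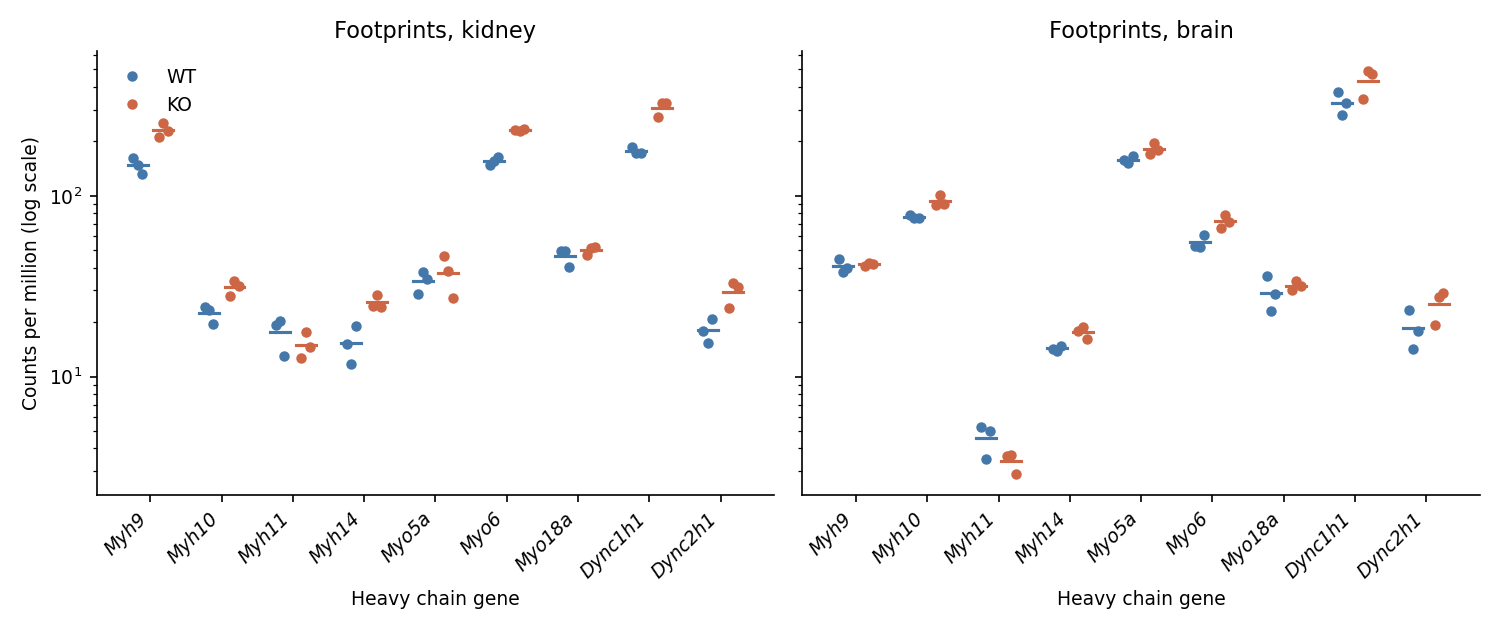
Footprint level of each heavy chain in every library (points, CPM on a log axis) with the mean of each group of 3 (lines), WT in blue and KO in orange. In kidney the KO points of Myh9, Myh10, Myh14, Myo6, Dync1h1 and Dync2h1 lie above all WT points, and in brain the genotypes lie closer.

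Coding length was compared because all 9 genes are long, the shortest coding sequence being that of Myo6, at 3882 bases. Of the other 1056 tested genes with a coding sequence of at least that length, 26.5% rose in kidney footprints and their median log2 fold change was 0.27, whereas 4.17% of shorter genes rose, with a median of -0.04. In brain footprints the medians were 0.11 and -0.04. These are counts and medians without a test.

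The kidney calls depended most on KO replicates 2 and 3. These had 42452425 and 39384669 counts and KO replicate 1 had 11036643. Without KO replicate 3 none of the 9 was called and without KO replicate 2 only Dync1h1 was, whereas all 6 were called without KO replicate 1. The number of genes called among all tested fell in parallel, from 1329 to 56 and 113. The size of the change moved little, with log2 fold changes of 0.73 for Dync1h1, 0.66 for Dync2h1 and 0.64 for Myh9 without KO replicate 3. Without WT replicate 1, 3 of the 9 were called. Leaving out 1 library at a time, the Myh10 call was lost in 5 of 6 fits and the Myo6 call in 4 of 6. Where libraries were scaled by their totals alone, 5 of the 9 were called and 35.6% of all called genes rose, against 60.4% with TMM. The gene that dropped out was Myh10 (log2 fold change 0.39, adjusted p = 0.0900 by edgeR).

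In brain footprints none of the 9 was called, nor by DESeq2, although 6 had an unadjusted p under 0.05, as did 2096 of 14465 genes. Of all genes, 0.0346% were called. The values were smaller than in kidney for most members. Dync1h1 had 377, 280 and 325 CPM in WT and 342, 491 and 470 in KO (log2 fold change 0.38, standard error 0.15, adjusted p = 0.326). Myo6 had 53, 52.2 and 60.8 CPM in WT and 66, 78.4 and 72 in KO (0.35, standard error 0.11, adjusted p = 0.251), and Myh10 had 77.9, 75 and 75.2 in WT and 88.6, 101 and 89.9 in KO (0.27, standard error 0.10, adjusted p = 0.320). In both of the last genes the genotypes did not overlap, and 4 of the 9 were so placed, as 12.7% of genes were.

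Myh9 was almost level in brain, at 44.5, 37.9 and 39.7 CPM in WT and 40.7, 42.6 and 41.9 in KO. With Myh10 footprints higher and Myh9 footprints level, the Myh9 share of the nonmuscle chains was 31.6% in WT and 27.9% in KO brain and the Myh10 share 57.6% and 60.7% (exact permutation test p = 0.1 for each, the smallest possible). The genotypes did not overlap in either share.

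Whether the change on Rpl41 loss differed between kidney and brain was tested by the interaction of tissue and genotype. None of the 9 passed in footprints, where 2 had an unadjusted p under 0.05 (1474 of 15612 genes) and 0.141% of genes were called. Myh9 came nearest, with a log2 fold change 0.61 larger in kidney than in brain (standard error 0.16, unadjusted p = 0.00154, adjusted p = 0.304), and DESeq2 called it (adjusted p = 0.0180). Myh14 followed with 0.45 (standard error 0.20, adjusted p = 0.609). For the dynein chains the differences were 0.39 (standard error 0.21) and 0.28 (standard error 0.25), so that a difference between tissues was not shown for them. In RNA the same interaction was called for none of the 9 by edgeR or DESeq2, with 3 at an unadjusted p under 0.05 (1296 of 16426 genes) and 0% of genes called by edgeR.

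RNA of the heavy chains gave no calls between the genotypes by edgeR, and 1 by DESeq2, Myh11 in brain. In kidney RNA none of the 9 was called by edgeR or DESeq2, with 3 at an unadjusted p under 0.05 (1967 of 13906 genes), and 0.00719% of genes were called, which is Rpl41 alone. Dync1h1 RNA was at 101, 127 and 95.9 CPM in WT and 102, 118 and 116 in KO. Myh9 RNA was at 63.8, 70.3 and 72.7 CPM in WT and 58.7, 62.1 and 58.8 in KO, so that every KO library was below every WT library while the footprints were higher. Myh10 RNA was likewise at 14.3, 17.1 and 14.2 CPM in WT and 11.6, 9.34 and 10.2 in KO (log2 fold change -0.54, standard error 0.16, adjusted p = 0.292). With Myh14 RNA at 14.5, 14 and 18.1 CPM in WT and 18.8, 20.7 and 17.8 in KO, the Myh14 share of the nonmuscle RNA was 17.5% in WT and 23.8% in KO (exact permutation test p = 0.1, the smallest possible). The median of all genes stood at 0.10 in this comparison, against which these values are to be read, and at -0.06 where library totals alone were used. Of other genes with a coding sequence at least as long as that of Myo6, 50% had a positive value (median -5.4e-04). Of shorter genes 62.6% did (median 0.11). In kidney RNA 4 of the 9 had every KO library below every WT library, as 6.67% of genes did.

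Myh11 RNA was the lowest relative to WT in both tissues. In kidney it had 11.6, 13.6 and 8.2 CPM in WT and 4.33, 6.71 and 7.25 in KO (log2 fold change -0.86, standard error 0.27, adjusted p = 0.292). In brain it had 2.83, 2.33 and 1.89 CPM in WT and 0.757, 0.409 and 0.429 in KO, from 212 to 280 counts in WT and 34 to 109 in KO (log2 fold change -2.15, standard error 0.30, unadjusted p = 7.71e-05, adjusted p = 0.459 by edgeR and 2.32e-07 by DESeq2). The genotypes did not overlap in either tissue. In brain RNA the KO libraries lay below all WT libraries for Myh9 and Myh11, as for 1.86% of genes. There none of the 9 was called by edgeR, 2 had an unadjusted p under 0.05 (786 of 15731 genes), and 0.00636% of genes were called. In brain RNA 37.4% of other genes at least as long as Myo6 in coding sequence had a positive value (median -0.05). Of shorter genes 71.6% did (median 0.11).

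Other smooth muscle genes gave values of the same sign. Of 7 tested smooth muscle markers, 6 had a negative log2 fold change in brain RNA (median -0.56) and 6 in kidney RNA (median -0.31), and none was called. The 8 markers summed to 8.56 to 13.1 CPM in WT and 5.98 to 6.57 in KO brain RNA, and to 71.9 to 94.7 in WT and 62.5 to 67.9 in KO kidney RNA. Acta2, the smooth muscle actin, was at 5.03, 3.86 and 2.04 CPM in WT and 1.5, 1.09 and 1.15 in KO brain. Endothelial markers also gave negative values, in 6 of 6 in brain RNA (median -0.58) and 5 of 6 in kidney RNA (median -0.41). So did 5 of 5 podocyte markers in kidney RNA (median -0.56, sums with a median of 143 CPM in WT and 94.3 in KO, without overlap) and 5 of 5 red blood cell markers in brain RNA (median -1.28, sums of 615 to 2236 CPM in WT and 348 to 750 in KO), none called. The part of these cell types in the Myh11, Myh9 and Myh10 RNA values was not tested, and in whole tissue fewer cells of a type and less RNA per cell cannot be told apart. In kidney footprints the smooth muscle markers summed to 64.1 to 99.8 CPM in WT and 84.5 to 107.5 in KO.

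The value of Myo18a RNA depended on the transcript model. On the model with the longest protein, which lacks the 3′ end of the longest model, kidney RNA was at 36, 31.1 and 40.7 CPM in WT and 26.2, 20.2 and 20.1 in KO (log2 fold change -0.69, standard error 0.17, adjusted p = 0.292). On the longest model it was at 66.3, 69.6 and 64.5 CPM in WT and 57.3, 67.3 and 64.5 in KO (log2 fold change -0.08, standard error 0.13). The genotypes were apart on the first and overlapped on the second. The model without the 3′ end held 44.7% to 63% as many RNA counts as the longest in the WT and 30.1% to 45.7% in the KO kidney libraries, though it has 87.6% of the length. In kidney footprints it held 98.7% to 99.4%.

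Myo5a and Myo6, whose longest models carry long 3′ ends, also had smaller shares in RNA. The Myo6 model without that end, 52.2% of the length, held 15.3% to 22.8% of the RNA counts in kidney and 18.8% to 35.3% in brain, and at least 99.2% of the footprints. The Myo5a model without it, 54.4% of the length, held 41.6% to 56.3% of the RNA counts in kidney and 17.6% to 27.7% in brain. The RNA was selected by its poly(A) tail, whose part in these shares was not tested. The tissue difference of Myo5a RNA depended on this: WT kidney against WT brain gave a log2 difference of -0.38 (standard error 0.21, adjusted p = 0.135) on the shorter model and -1.60 (standard error 0.15, adjusted p = 7.16e-06) on the longest.

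**Figure D4:**
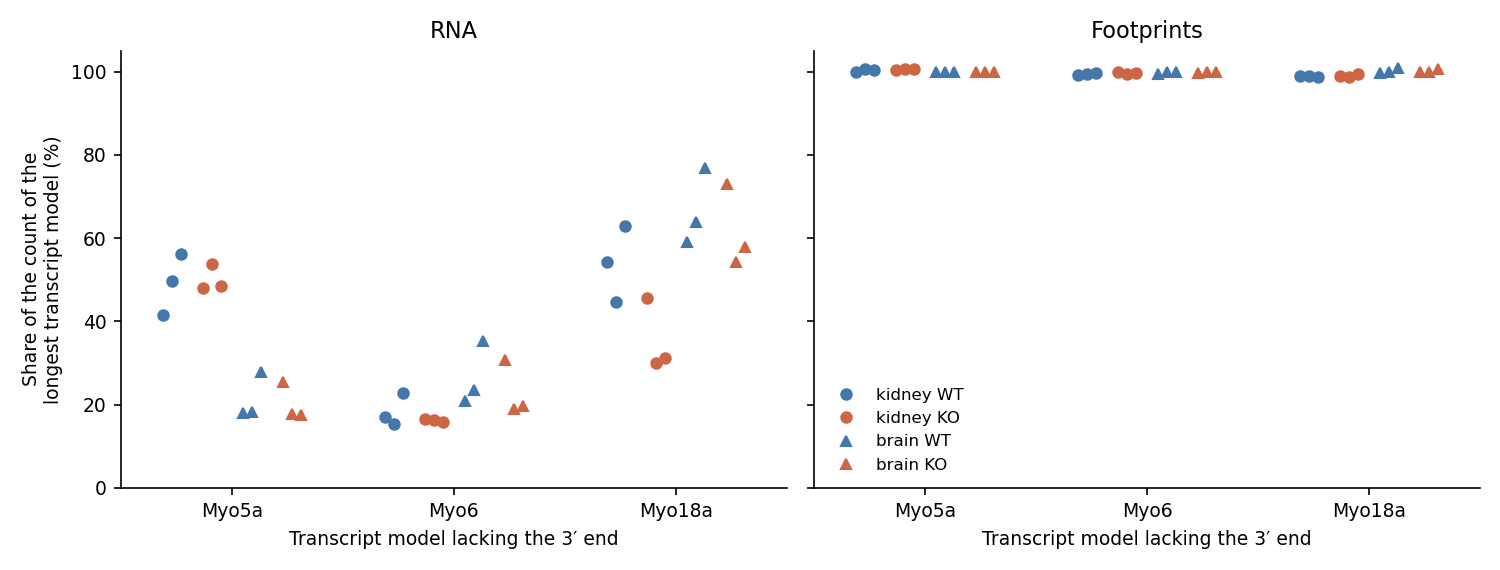
Counts on the transcript model lacking the 3′ end as a percentage of the counts on the longest model of the same gene, for each RNA and footprint library (circles kidney, triangles brain, blue WT, orange KO). Footprint libraries lie near 100%, and RNA libraries lie between 15.3% and 76.8% and differ between genes and tissues.

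Footprints relative to RNA, the translation efficiency (TE), were tested with a term for the genotype effect by assay. In kidney all 9 genes had a positive value on the model with the longest protein. Their median log2 fold change was 0.62 beside -0.13 over all genes. None was called by edgeR, where 0% of 15479 genes were called. Of the other genes with a coding sequence at least as long as that of Myo6, 67.2% had a positive value (median 0.24). Of shorter genes 38.4% did (median -0.15). An unadjusted p under 0.05 was reached by 5 of the 9 and by 2727 genes. DESeq2 called 3 of the 9 (Myh9, Myh10 and Myo18a) and 698 genes. The largest value was that of Myh10, at 0.99 (standard error 0.21, unadjusted p = 4.36e-04, adjusted p = 0.114), followed by Myh9 at 0.82 (standard error 0.17, unadjusted p = 3.66e-04, adjusted p = 0.111). Over the tested models of a gene it ran from -0.15 to 0.997 for Myh10, -0.16 to 0.95 for Myh14 and -0.92 to 2.39 for Dync2h1. Only Myh9, Myh11 and Dync1h1 had positive values on every tested model, from 0.82, 0.61 and 0.71 upward.

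Dync1h1 had a TE change of 0.71 (standard error 0.20, adjusted p = 0.130) and Myo6 of 0.59 (standard error 0.18, adjusted p = 0.139). The Myo6 value is from the model without the 3′ end. Over its 12 tested models TE ran from -2.28 to 1.65 in kidney and -0.71 to 0.87 in brain, with none called. The TE change of Myo18a was 0.77 (standard error 0.21, adjusted p = 0.128) on the model without the 3′ end and 0.16 (standard error 0.18) on the longest. The other 4 lay between 0.13 for Myo5a and 0.62 for Myh11. In brain all 9 values were again positive on the model with the longest protein, from 0.22 for Myo18a to 1.69 for Myh11 (standard error 0.37, adjusted p = 0.895). None was called by edgeR or DESeq2, with 4 of the 9 and 884 of 16721 genes at an unadjusted p under 0.05. Of other genes with a coding sequence at least as long as that of Myo6, 74% were positive there (median 0.19). Of shorter genes 35.7% were (median -0.11). The kidney and brain values come from separate libraries, while TE and footprint values of 1 tissue share the Ribo-seq libraries.

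**Figure D5:**
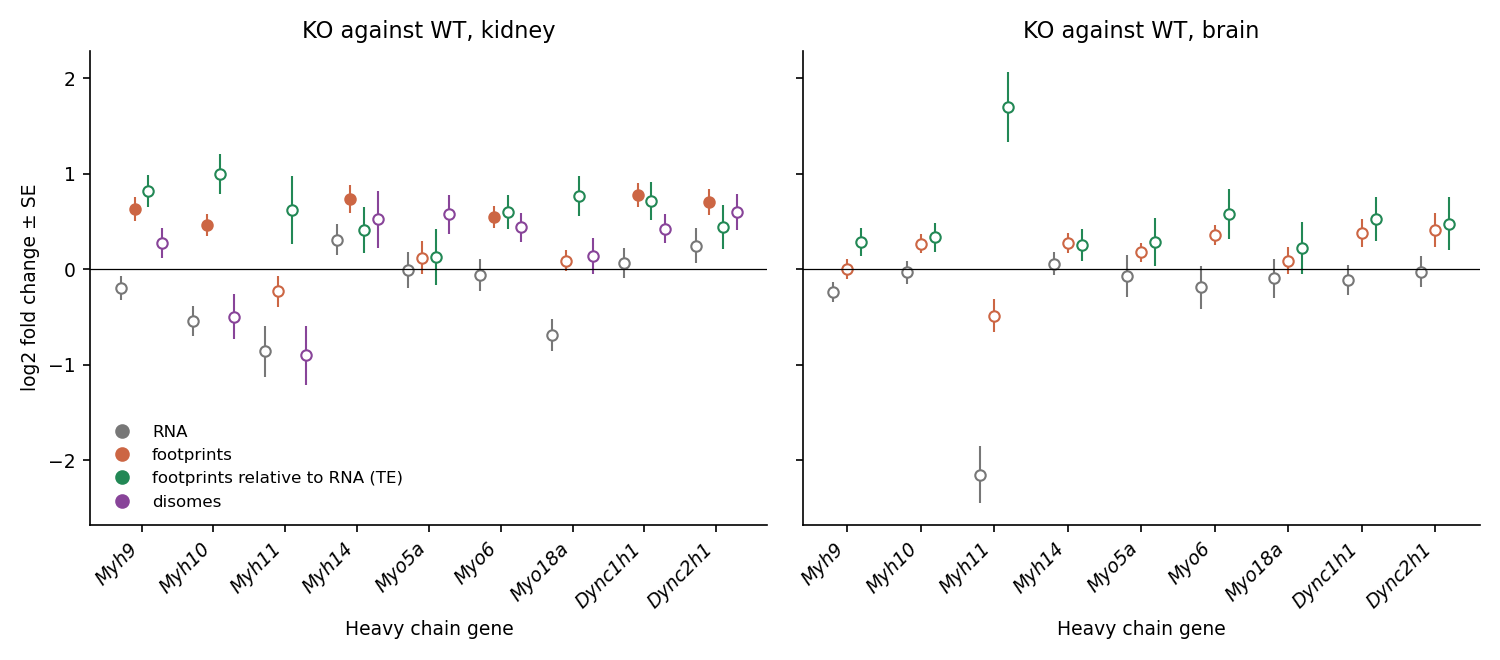
Log2 fold change of KO against WT with its standard error for each heavy chain in RNA, footprints, TE and, for kidney, disomes. Filled symbols mark an adjusted p under 0.05, which in these comparisons are 6 kidney footprint values, and Myh11 in brain has the lowest RNA and the highest TE value.

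Between the WT tissues, TE differed for 2 of the 9, both lower in kidney, where 21.3% of genes differed and 9% were lower. Dync1h1 had a log2 value of -0.79 (standard error 0.24, adjusted p = 0.0281), with RNA at 101, 127 and 95.9 CPM in kidney and 115, 88.9 and 114 in brain and with footprints lower in kidney as given above. Myo5a had -1.70 (standard error 0.26, adjusted p = 1.74e-04), and -0.48 (standard error 0.20, adjusted p = 0.106) on its longest model.

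The kidney disome libraries were shallow, and the heavy chains had from 9 (Myh11) to 492 (Myh9) counts in a library. None of the 9 was called by edgeR or DESeq2 in KO against WT, with 6 at an unadjusted p under 0.05 (868 of 7773 genes), and 0.154% of genes were called. Of the 6, Dync1h1, Dync2h1, Myo5a and Myo6 had positive values and Myh10 and Myh11 negative ones. Disomes on Myh11 were at 14.2, 21.1 and 8.16 CPM in WT and 6.96, 8.46 and 10.7 in KO, with 9 to 62 counts, and the genotypes overlapped (log2 fold change -0.90, standard error 0.31, adjusted p = 0.264). Disomes on Dync2h1 were at 31.5, 38.1 and 29.9 CPM in WT and 42.7, 55.8 and 56.5 in KO (log2 fold change 0.60, standard error 0.19, adjusted p = 0.204). Those on Dync1h1 were at 156, 148 and 125 CPM in WT and 184, 209 and 185 in KO (0.42, standard error 0.15, adjusted p = 0.296), and those on Myo6 at 132, 133 and 127 in WT and 190, 176 and 165 in KO (0.44, standard error 0.15, adjusted p = 0.256). In 5 of the 9 every KO library was above every WT library, as in 7.11% of genes. Myo5a, whose footprints overlapped, was one of them, at 29, 28.2 and 28.1 CPM in WT and 52.9, 38.9 and 32.2 in KO. Disome values were positive for 7 of the 9. They were also positive for 71.1% of other genes at least as long as Myo6 in coding sequence (median 0.17). Of shorter genes 47.4% were positive (median -0.02).

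Relative to footprints, disomes on Myh10 had the lowest value, at a log2 fold change of -0.93 (standard error 0.26, unadjusted p = 0.00149, adjusted p = 0.616). Disomes on Myh10 were at 25.9, 29.2 and 18.1 CPM in WT and 16.7, 23.1 and 12.7 in KO, while its footprints rose. No gene at all was called in this comparison by edgeR (0% of 12242, 725 at an unadjusted p under 0.05), and 1 of the 9 was at an unadjusted p under 0.05. With same-numbered Ribo-seq and disome libraries of a genotype paired as a block, Myh10 was called (log2 fold change -0.89, standard error 0.23, adjusted p = 0.0326), as were 42 genes in all. Their deviations correlated by 0.18 to 0.23 in WT and 0.079 to 0.12 in KO. The ratio of disome to footprint CPM in WT was highest for Dync2h1 (1.84) and Myo18a (1.48) and lowest for Dync1h1 (0.81), beside a median of 0.80 over 7670 genes with at least 5 CPM of footprints in both genotypes.

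Genes that work with these motors were read from lists, beside the 9.88% of all genes called in kidney footprints (5.97% higher, 3.91% lower). An unadjusted p under 0.05 was reached in kidney footprints by 3899 of 13454 genes. There, 1 of 15 light chain genes and regulators of myosin II was called: Ppp1r12a, the targeting subunit of myosin phosphatase, rose (log2 fold change 0.52, standard error 0.10, adjusted p = 0.0139). Of 15 light chain and cargo partners of myosins V and VI, Calm3, a calmodulin gene, fell by 0.42 on the log2 scale (adjusted p = 0.0265) and Calcoco1 rose by 0.43 (adjusted p = 0.0295). None of the 15 tested smaller subunits of dynein 1 and 2 was called by edgeR or DESeq2 (7 at an unadjusted p under 0.05, median log2 fold change -0.14). Among those with the largest changes, Dynll2, a light chain, had -0.40 (adjusted p = 0.158) and Wdr60, an intermediate chain of dynein 2, had 0.36 (adjusted p = 0.331). None of the 23 dynactin subunits, adaptors and regulators was called by either tool (7 at an unadjusted p under 0.05, median -0.06), with Bicdl1 at -0.59 (adjusted p = 0.0786).

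Of the 22 tested other myosin heavy chains 3 were called by edgeR, 2 higher and 1 lower, and 2 by DESeq2. Of those described here, Myo7b, a motor of the brush border, rose (log2 fold change 0.69, standard error 0.11, adjusted p = 0.00760) and Myo18b, a gene of striated muscle, fell by 0.88 (adjusted p = 0.0173). The median of that list was 0.25. Of 11 tested axonemal dynein heavy chains, the motors of motile cilia and sperm tails, none rose and 2 fell by edgeR: Dnah17 by 1.28 (adjusted p = 0.0106) and Dnah8 by 1.39 (adjusted p = 0.0132). DESeq2 called 1 of that list. Of its 15 genes, 7 passed the expression filter in kidney RNA and 2 in kidney disomes. In the other 9 comparisons that involve the KO, none of the 116 genes of these 6 lists was called by edgeR. Those at an unadjusted p under 0.05 numbered from 1 of 112 tested in brain RNA (786 of 15731 genes) to 22 of 109 in kidney TE (2727 of 15479 genes). DESeq2 called 7 in kidney TE and none in the rest.

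Between the WT tissues, where 75.6% of all genes differed in footprints, most of the partners differed too. Myo7b was far higher in kidney (log2 fold change 6.65, standard error 0.20), as were the endocytic adaptor Dab2 of myosin VI (4.86, standard error 0.15), the myosin light chain kinase Mylk (4.18, standard error 0.20), Myo1c (3.05, standard error 0.16) and Myo5b (2.80, standard error 0.15). Dync1i1, the intermediate chain of dynein 1 that neurons use, was far lower (-8.34, standard error 0.23), as were the kinase Rock2 (-2.32, standard error 0.13), the dynein regulator Pafah1b1 (-1.53, standard error 0.13) and Calm2 (-2.71, standard error 0.17). All had an adjusted p under the threshold. Of each list, 20 of 23 other myosins, 13 of 15 myosin II light chains and regulators, 13 of 15 partners of myosins V and VI, 12 of 17 dynein subunits, 19 of 23 dynactin and adaptor genes and 6 of 14 axonemal chains differed.

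Across the 12 RNA libraries, with each tissue centred on its own mean, the gene most like Myh11 among 13194 was Acta2 (Pearson's r = 0.94), and then Rpl41 (0.90), which is removed in the KO, and Ahnak (0.88). Myh9 was most like Uaca (0.96), Col4a6 (0.89) and Sptan1 (0.88). Myo5a was most like Adgrl1 (0.90), Adcy9 (0.89) and Fam120c (0.88), and Dync1h1 like Adam15 (0.93), Atg2b (0.93) and Mroh1 (0.91). These are descriptions over libraries that also share genotype and depth.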

How the data were processed

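The deposited table holds whole-number read counts per transcript. Per the labels and the study's methods, the authors trimmed reads (cutadapt), removed rRNA reads and aligned to the mouse transcriptome and genome (mm10) with STAR, keeping multimapping reads, and counted with featureCounts (Subread); versions are not given in the sources used here. RNA was poly(A)-selected. Of 142604 rows, 141374 matched GENCODE M21. The members and gene lists were chosen with earlier results of these data known. Transcripts passing filterByExpr were tested in edgeR 4.0.16 (R 4.3.3) by the quasi-likelihood F-test after TMM scaling, with Benjamini-Hochberg adjustment over all transcripts. TE, disomes relative to footprints and tissue effects were interaction terms. Alternatives were DESeq2 1.42.0, other filters and scalings, sums per gene, a replicate block, leave-one-out and, added after seeing the data, the longest transcript. By rule, up to 3 called genes per list with the smallest adjusted p were named, or up to 2 with the largest change. The labels do not say which libraries share an animal. Deviations of same-numbered WT and KO libraries of 1 tissue and assay correlated by -0.44 to 0.50, so the numbers did not pair the genotypes. Between Ribo-seq and RNA-seq of 1 genotype and tissue they correlated by 0.17 to 0.26 (WT kidney), 0.12 to 0.14 (KO kidney), 0.19 to 0.43 (WT brain) and -0.043 to 0.11 (KO brain). Between kidney and brain RNA-seq they correlated by 0.070 to 0.30 (WT) and 0.15 to 0.31 (KO). Whether equal numbers mark 1 animal is not known. In kidney TE and in TE between WT tissues, a fit with the assays paired by number as a block left the calls of the 9 as they were. Replicates differed beyond counting noise. Scripts were tested on simulated data. A human cell table of 28 columns, titled as mouse samples, was not used. A result for another myosin gene is not reported here.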

Additional observations from a re-analysis of the deposited data

Results flagged for a closer look

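2 results differed between the WT tissues by a test of the difference itself, the interaction of tissue and assay in edgeR's quasi-likelihood test. Footprints relative to RNA on Dync1h1 had a log2 fold change of -0.7873 in kidney against brain (standard error 0.24, adjusted p = 0.0281). The value was -0.61 with an adjusted p of 0.0648 when counts were summed per gene, and adjusted p rose above the threshold without WT brain RNA-seq replicate 2, WT kidney RNA-seq replicate 2 or any 1 of the 3 WT kidney Ribo-seq libraries, with log2 fold changes of -0.67, -0.63, -0.81, -0.75 and -0.76.

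For Myo5a the same interaction gave -1.703 (standard error 0.26, adjusted p = 1.74e-04) and was past the threshold without any 1 library. It was -0.70 (adjusted p = 0.0489) with counts summed per gene and -0.48 (adjusted p = 0.106) on the longest transcript model, whose RNA counts include the long 3′ end.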

How the results depend on the processing

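For 57 values of the 9 genes, 918 alternatives were computed. Of these, 862 kept their direction and side of the threshold, 28 lost a call, 25 gained one and 3 changed sign, none of the last called. The 57 are a selection from the values of the 9 genes in the 13 comparisons. In kidney RNA, for example, they cover only Myh10, Myh11 and Myo18a. The values left out, among them many small changes, are not part of these counts. Kidney footprints called 6 of the 9 by DESeq2, without a filter, with a 10-count filter, with 1 transcript per gene and on the longest transcripts. With library totals or sums per gene 5 were called, and Myh10 was not. Over all genes the count of 1329 became 854 by DESeq2, 678 with sums per gene and 2210 without a filter, and without 1 library it was 534 (WT replicate 1), 628 (WT replicate 2), 113 (KO replicate 2) and 56 (KO replicate 3). Same-numbered WT and KO libraries did not pair. With the number as a replicate block, kidney footprints called 4 of the 9 and 880 genes, RNA and footprints between WT tissues 6 and 7, and TE between WT tissues 2, and a replicate block within group called 1 in disomes relative to footprints (Myh10, -0.89) and changed no call of the 9 in the TE comparisons, and the blocks called none in the remaining comparisons. DESeq2 called 1 of the 9 in brain RNA, 3 in kidney TE and 1 in the footprint interaction. Kidney TE called 3 with 1 transcript per gene, and TE between WT tissues 1 on the longest transcripts. With sums per gene the KO minus WT difference in share of the nonmuscle chains was -6.52 (Myh9), -6.55 (Myh10) and 13.07 (Myh14) percentage points in kidney RNA, beside -2.77, -3.52 and 6.29, and for Myh10 -1.88 in kidney and 1.99 in brain footprints, beside -1.22 and 3.08. The causes were not tested.

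Leaving out 1 library at a time gave 0 to 6 members called in kidney footprints, 0 to 2 in kidney RNA, 0 to 1 in brain RNA, 0 to 4 in kidney TE, 1 to 2 in TE between WT tissues and 0 to 1 in the RNA interaction. The 2 in kidney RNA, the 4 in kidney TE and the 1 in the RNA interaction came without KO kidney RNA-seq replicate 1, and the 1 in brain RNA without KO brain RNA-seq replicate 1. The log2 fold change of Myo5a in kidney footprints ran from -0.0494 to 0.32 and that of Myh9 in TE between WT tissues from -0.0168 to 0.35. Among genes called in TE between WT tissues, 57.7% were higher in kidney by edgeR and 37.6% by DESeq2. In disome libraries a heavy chain had as few as 9 counts, which limits precision there.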
